A study of Homo sapiens with 6 samples.

Results

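In C4-2, a prostate cancer line resistant to castration, the RNA of 119 named genes was lower by at least 1 on the log2 scale in each of 3 pairs of libraries after 72 h of the synthetic androgen R1881 (methyltrienolone) at 1 nM, the supraphysiological androgen level called SAL here. The comparison was made between 3 libraries of cells given the solvent DMSO and 3 libraries of cells given SAL, numbered 1 to 3 in each group. C4-2 is a subline of the androgen-sensitive line LNCaP that grew out after passage in castrated mice, so both groups are cultures of a single established line. The 119 genes were taken from 55242 gene symbols, of which 15087 had a mean of at least 2 CPM, the counts scaled to a common library size, in DMSO. A gene was included when its mean DMSO level was at least 2 CPM and when the log2 of (SAL + 0.5) over (DMSO + 0.5), in CPM, was -1 or less in each of the 3 same-numbered pairs. Symbols of the commonest clone-name forms (such as RP11- or AC names), numbered intergenic RNAs, histone, UGT2B, small nucleolar and microRNA symbols were left out, which took 19 of the 138 symbols past both thresholds, themselves 0.915% of the 15087. The SAL libraries themselves chose these genes, so their fall is a description and carries no test, and only genes and measures outside the choice were tested.

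Androgens are steroid hormones that change transcription in prostate cells through hormone response elements in DNA. They are best known for switching genes on, such as KLK3, which encodes the prostate-specific antigen. They also lower the RNA of other genes, either directly at those genes or through factors and growth states that they change. In prostate cancer cells, high androgen is known to slow proliferation, and genes lowered by androgen include neural, developmental and cell division genes.

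The libraries held from 6931042 to 9776990 counts on genes after removal of rRNA genes, so that 1 count was worth between 0.102 and 0.144 CPM and a level at the lower limit of 2 CPM rested on few counts in a library. KLK3, the reference androgen-induced gene, went from 579, 1231 and 661 CPM to 1426, 2365 and 1397 CPM, and the luminal genes KLK2, KRT8, HOXB13 and FOLH1 were present in every library. The basal keratin KRT5, the neuroendocrine gene CHGB, the endothelial cadherin CDH5, the immune genes PTPRC and CD3E and the fibroblast collagen COL1A2 were at 0 counts in all 6 libraries, and these are 6 of the 18 markers of other cell types that were measured. Another 6 had counts in every library: ENO2 (1.83 to 8.56 CPM), CHGA (0.493 to 2.38) and SYP (1.10 to 2.45) of neuroendocrine cells, COL1A1 (1.71 to 10.5) of fibroblasts, VWF (0.489 to 3.79) of endothelial cells and CD68 (0.123 to 0.577) of immune cells. Summed over the 18 markers the level was 7.57 to 28.5 CPM in DMSO and 7.52 to 21.8 CPM in SAL, and the part of such cells or transcripts in the results was not tested. Same-numbered libraries deviated together from their group means, with correlations of 0.886, 0.856 and 0.739 over all genes tested, and the counts are therefore read pair by pair. The libraries are bulk RNA, in which fewer cells with a transcript and less of it per cell cannot be told apart.

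Across the 119 genes, the median of the 3 pair changes ran from -3.55 (TTC29) to -1.02 (MND1), with a median of -1.63, and the SAL mean ran from 5.09% to 46.9% of the DMSO mean, with a median of 27.3%. The median change was -2 or less for 30 genes and -3 or less for 3 genes. Together they made up 7477, 7893 and 7668 CPM in DMSO replicates 1 to 3 and 2960.1, 2458 and 2479 CPM in the SAL replicates. Their mean DMSO level spanned 2.16 to 2502 CPM with a median of 12.3 CPM, and 19 genes had 100 CPM or more while 30 had fewer than 5 CPM. The genes closest to the change threshold on the inside were LUZP2, NEK2 and PALMD, whose smallest pair changes were -1.0005, -1.0012 and -1.0034, and on the outside C5orf34, HOXA11-AS and ESCO2, at -0.9995, -0.9959 and -0.9953. At the level threshold, DMGDH, DRP2 and CSF1 stood inside at 2.16, 2.32 and 2.38 CPM and DAPK1-IT1, KCNS1 and NWD1 outside at 1.97, 1.68 and 1.65 CPM.

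Of the 119 genes, 95 had every SAL library below every DMSO library, where 5.16% of the 15087 genes at the same level did so, and nothing is read from that count because the choice used the same libraries. The other 24 overlapped between the groups while each pair moved down, among them ACKR3, BMP7, FRAS1, TNC, BIRC5, CENPA, NDC80, NEK2 and LIF. In DMSO, the highest library exceeded the lowest by a median factor of 2.17 over the 119 genes and of 2.22 over all genes at 2 CPM or more. Within a gene the 3 pair changes lay a median of 0.54 apart on the log2 scale, and in 57 genes the smallest of them was that of pair 1. The median change of the 119 genes was -1.44, -1.68 and -1.70 in pairs 1, 2 and 3, beside -0.05, -0.14 and -0.12 for all genes at the same level.

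How far the choice rested on each pair was described by leaving that pair out. Choosing with pairs 2 and 3 took 253 genes, of which 92.9% were below 0 and 47.4% at -1 or less in pair 1, with a median of -0.99. Choosing with pairs 1 and 3 took 173 genes, of which 96.5% were below 0 and 67.6% at -1 or less in pair 2, with a median of -1.32. Choosing with pairs 1 and 2 took 158 genes, all below 0 in pair 3 and 74.7% at -1 or less, with a median of -1.36. Among all named genes at the same DMSO level, 2.42%, 3.80% and 3.73% were at -1 or less in pairs 1, 2 and 3, and the plot of the left-out pairs sets both shares side by side. The genes at -1 or less in the left-out pair numbered 120, 117 and 118 and are nearly the 119 over again, so these shares describe the choice and are no separate evidence for it.

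**Figure D1:**
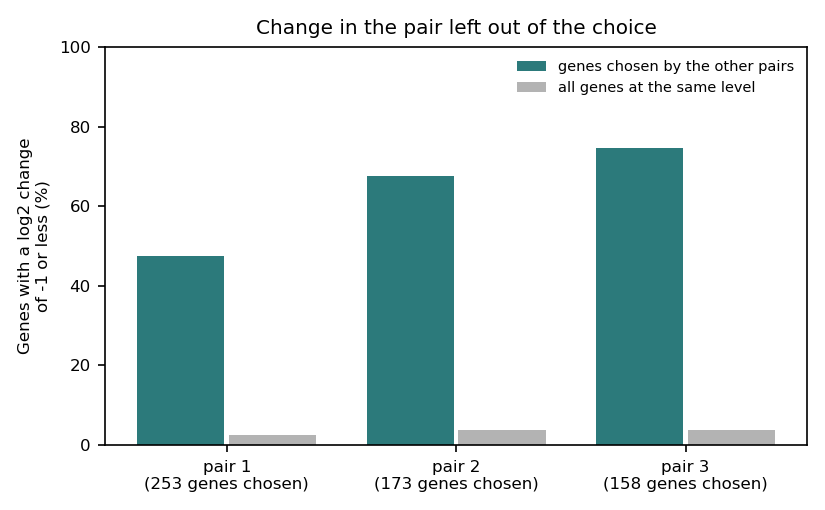
Share of genes (percent) with a log2 change of -1 or less in the pair that was left out of the choice, for genes chosen by the other pairs (teal) and for all genes at the same level (grey). The teal bars stand at 47.4%, 67.6% and 74.7% and the grey bars at 2.42%, 3.80% and 3.73%.

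Grouped by role, the neural adhesion and vesicle genes, the ST7 locus and the G protein-coupled receptors had the lowest group medians, at -2.10, -2.09 and -2.03, and the cell division genes the highest, at -1.12. Roles were assigned after the genes were known, so the order is a description. The counts of genes without overlap given by role below are descriptions too, since the choice used the same libraries. Over all 15087 genes at 2 CPM or more in DMSO that share was 5.16%. The plot of pair changes by role shows that single genes near the threshold occur in most roles and that the changes below -3 belong to TTC29, PLD1, CAMK2N1, LPPR1, TRDN, UNC13C, PGR and COLCA1.

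**Figure D2:**
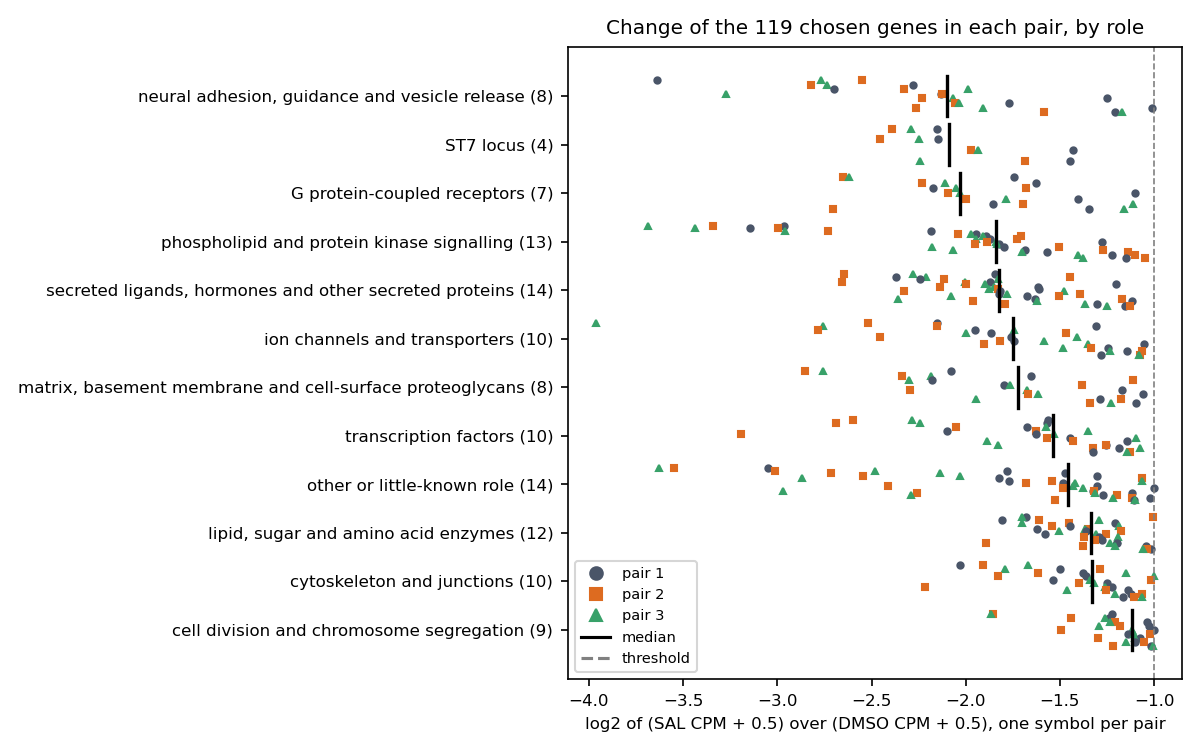
Log2 change of each of the 119 genes in each pair (x axis; circle, square and triangle for pairs 1, 2 and 3), arranged by role, with the number of genes in brackets. The black bar is the group median of the genes' median changes, from -2.10 for the neural genes to -1.12 for the cell division genes, and the dashed line is the threshold of -1.

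The gene with the most negative change was TTC29, which encodes a tetratricopeptide repeat protein of the sperm flagellum and ciliary axoneme, on chromosome 4 from 147627769 to 147867034 on the minus strand in GRCh37. It had 18.9, 34.1 and 20.8 CPM in DMSO and 1.85, 2.45 and 1.22 CPM in SAL in replicates 1 to 3, the order used for all triplets that follow, and its pair changes were -3.05, -3.55 and -3.63. PLD1, which makes phosphatidic acid from phosphatidylcholine, lies on chromosome 3 from 171318194 to 171528740 on the minus strand and had 25.5, 32.5 and 40.5 CPM in DMSO and 2.84, 2.76 and 2.68 CPM in SAL. Its SAL values were the tightest of the 3 genes, and its pair changes were -2.96, -3.34 and -3.69. CAMK2N1, an inhibitor of the calcium and calmodulin-dependent kinase CaMKII that is known as an androgen-repressed gene, had 45.3, 87.7 and 39.2 CPM in DMSO and 4.68, 10.5 and 3.17 CPM in SAL, with pair changes of -3.14, -2.9980 and -3.44. For each of these 3 genes the lowest DMSO library was above the highest SAL library, and SAL left 7.49%, 8.40% and 10.7% of the DMSO mean.

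LPPR1 (now PLPPR1), a neuronal membrane protein of the lipid phosphate phosphatase family, had 11.8, 6.03 and 7.07 CPM in DMSO and 0.493, 0.614 and 0.610 CPM in SAL. MMP16, a membrane-anchored matrix metalloproteinase, had 167, 320.5 and 389 CPM in DMSO and 39.2, 43.98 and 57.1 CPM in SAL. Both had all SAL libraries below the DMSO range, LPPR1 at 6.88% and MMP16 at 16.0% of the DMSO mean. SLITRK3, which organises synapses, had 12.1, 74.6 and 63.8 CPM in DMSO and 2.096, 10.1 and 9.15 CPM in SAL. DAPK1, a calmodulin-regulated death-associated kinase, had 28.1, 117 and 127 CPM in DMSO and 5.79, 17.2 and 15.9 CPM in SAL. In these 2 genes replicate 1 was the lowest library of its group in DMSO and in SAL, and the groups were still apart. Pair changes were -2.28, -2.82 and -2.74 for SLITRK3 and -2.18, -2.73 and -2.96 for DAPK1. TRDN, the triadin of calcium release complexes, had 9.41, 5.89 and 11.1 CPM in DMSO and 1.73, 0.614 and 0.244 CPM in SAL, and its pair changes of -2.15, -2.52 and -3.96 were among the most uneven. COLCA1, a gene at a colorectal cancer risk locus, had 49.96, 168 and 117 CPM in DMSO and 14.2, 20.4 and 20.6 CPM in SAL. Both had their whole SAL range below the DMSO range, although TRDN in SAL rested on 2 to 14 counts a library. GLP1R and CNTN5 had at most 3 counts in every SAL library, so only a bound can be given: set against 3 counts per library they were at least 8.47-fold and at least 8.17-fold lower.

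**Figure D3:**
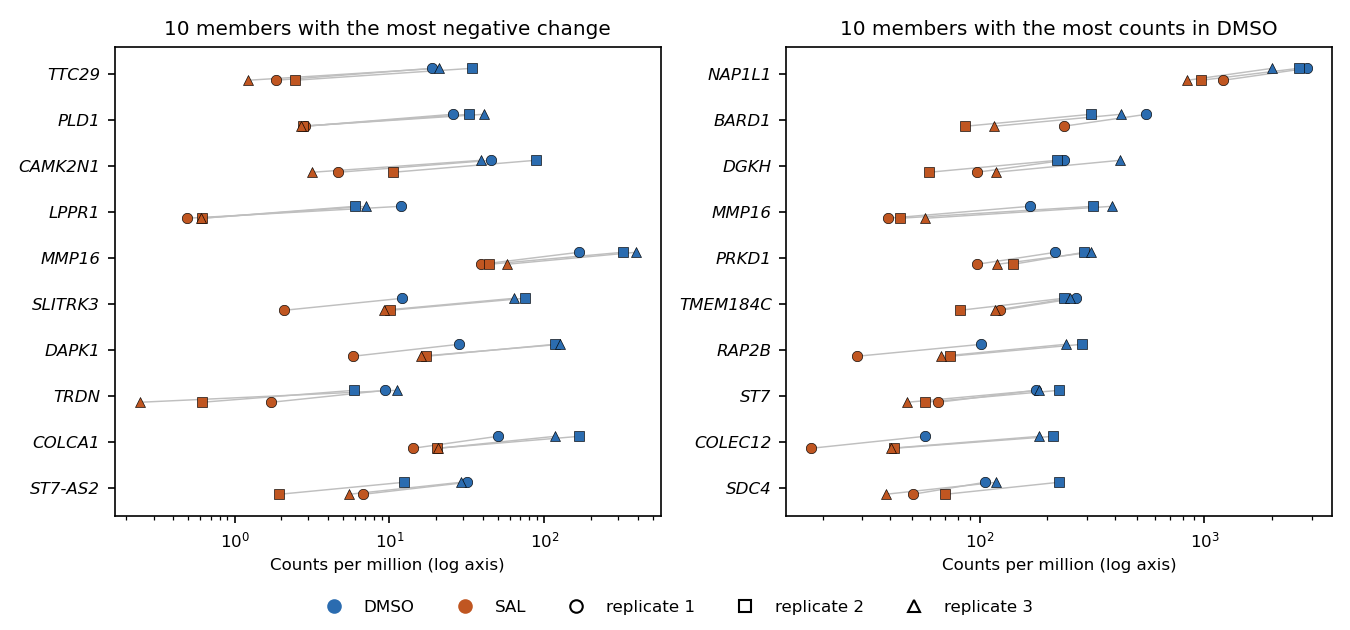
Level of each library in CPM (log axis) for the 10 genes with the most negative median change that were not at the floor (left) and the 10 with the most counts in DMSO (right). Blue is DMSO and orange SAL, the symbols stand for replicates 1 to 3 and grey lines join the pairs; all lines run to the left, as in TTC29 with pair changes of -3.05, -3.55 and -3.63.

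Per kilobase of exon, the most abundant of the 119 was NAP1L1, a histone chaperone that carries H2A and H2B, with a mean of 147 CPM per kb in DMSO and 59.1 in SAL. Its library values were 2868, 2629 and 2009 CPM in DMSO and 1215, 969 and 839 CPM in SAL. Next in this order, SDC4, BARD1, ACKR3 and TMEM184C stood at 57.1, 56.7, 55.4 and 53.4 CPM per kb in DMSO and at 20.2, 19.3, 15.2 and 22.8 in SAL. The length was that of all annotated exons of a gene joined, in a later annotation than the one used for counting. The close order of these genes can depend on that length. By counts, without regard to length, the 10 highest in DMSO were NAP1L1, BARD1, DGKH, MMP16, PRKD1, TMEM184C, RAP2B, ST7, COLEC12 and SDC4. TMEM184C, a membrane protein of little-known role, had 267, 236 and 252 CPM in DMSO and 124, 81.7 and 117 CPM in SAL.

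The region just upstream of a transcript's start is where general promoter elements and, in some genes, half-sites of hormone response elements lie. Upstream sequences (250 bases before the start of the canonical transcript, read 5′ to 3′ in the direction of the gene, GRCh37) are shown for TTC29 as the gene with the most negative change, for PDE1A and ABCA12 as genes with such a half-site, for PTGER3 as a gene with a TATA box and for CENPA as a gene of the cell division group. Capitals mark matches on either strand to AGAACA (the half-site), TATAAA (the TATA box), TTTGAA (the cell cycle homology region, CHR) and CCAAT (the CCAAT box).
TTC29 upstream sequence, GRCh37 chr4:147867017-147867266, minus strand: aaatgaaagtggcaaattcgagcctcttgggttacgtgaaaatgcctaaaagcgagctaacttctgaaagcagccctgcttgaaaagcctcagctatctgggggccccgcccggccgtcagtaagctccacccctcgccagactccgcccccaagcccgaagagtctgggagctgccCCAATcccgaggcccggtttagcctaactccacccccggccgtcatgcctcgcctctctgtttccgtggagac
PDE1A upstream sequence, GRCh37 chr2:183291764-183292013, minus strand: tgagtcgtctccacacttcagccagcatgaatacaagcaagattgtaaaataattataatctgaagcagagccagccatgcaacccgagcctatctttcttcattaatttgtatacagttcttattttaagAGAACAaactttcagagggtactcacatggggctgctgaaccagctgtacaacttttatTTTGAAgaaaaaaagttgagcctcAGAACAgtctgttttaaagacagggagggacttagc
ABCA12 upstream sequence, GRCh37 chr2:216003350-216003599, minus strand: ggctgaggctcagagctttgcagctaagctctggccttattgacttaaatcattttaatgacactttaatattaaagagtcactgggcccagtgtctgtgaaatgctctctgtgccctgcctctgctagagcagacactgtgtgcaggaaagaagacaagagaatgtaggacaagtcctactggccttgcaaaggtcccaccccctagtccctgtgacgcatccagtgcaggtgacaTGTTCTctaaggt
PTGER3 upstream sequence, GRCh37 chr1:71513500-71513749, minus strand: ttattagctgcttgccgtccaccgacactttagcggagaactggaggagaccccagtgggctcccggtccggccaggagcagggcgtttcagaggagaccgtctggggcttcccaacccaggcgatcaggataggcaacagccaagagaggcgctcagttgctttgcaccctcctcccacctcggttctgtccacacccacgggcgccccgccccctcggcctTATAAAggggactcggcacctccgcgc
CENPA upstream sequence, GRCh37 chr2:27008674-27008923, plus strand: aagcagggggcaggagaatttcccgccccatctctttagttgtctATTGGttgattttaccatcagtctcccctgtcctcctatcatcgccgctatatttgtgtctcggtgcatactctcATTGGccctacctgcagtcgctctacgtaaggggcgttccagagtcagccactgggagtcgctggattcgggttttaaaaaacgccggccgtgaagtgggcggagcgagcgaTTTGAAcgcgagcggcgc

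In PDE1A the half-site letters start 119 and 36 bases before the start of the canonical transcript, with CHR letters 60 bases before it. In ABCA12 the half-site on the opposite strand starts 13 bases before the start, and in PTGER3 the TATA box starts 27 bases before it. CENPA has CHR letters 18 bases and CCAAT letters on the opposite strand 205 and 130 bases before its start, and TTC29 has a CCAAT box at 73 bases. The canonical starts of PDE1A and CENPA lie 96323 and 21767 bases inside the annotated gene, so their windows are not upstream of the whole gene. That of TTC29 lies 18 bases inside, and those of ABCA12 and PTGER3 are the outermost starts. Over windows from 250 bases before to 50 bases after the start, searched on both strands, AGAACA occurred in 12 of 111 protein-coding members (10.8%) and in 7.88% of the 12171 protein-coding genes used for comparison. The full palindrome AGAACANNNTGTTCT occurred in 0 of the 111 windows and in 0 of the 12171. TATAAA was present in 13.5% against 5.36%, TTTGAA in 16.2% against 8.96%, CCAAT in 31.5% against 36.6% and GGGCGG, the box bound by SP1, in 62.2% against 74.3%. The windows of the 111 genes had a median GC content of 63.0% against 66.3%, and 21 of them (18.9%) had less than 50% GC against 6.32%, with a ratio of observed to expected CpG of 0.744 against 0.860 in the median. The part of GC content in these shares was not tested. A match is letters in a window and not a bound site.

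The 13 genes of phospholipid and kinase signalling had a median change of -1.84 (-3.34 to -1.15), and 12 of them did not overlap between the groups. Besides PLD1 they hold other enzymes that make or use lipid messengers: PLCH1, a phospholipase C, had 20.2, 32.8 and 44.005 CPM in DMSO and 5.05, 9.72 and 11.3 CPM in SAL. DGKH, a diacylglycerol kinase, had 236, 221 and 421 CPM in DMSO and 97.3, 59.4 and 118 CPM in SAL. PRKD1, a kinase activated by diacylglycerol, had 217, 291 and 312 CPM in DMSO and 97.4, 141 and 119.7 CPM in SAL. All 3 were lower in every SAL library than in any DMSO library, although in PRKD1 pairs 1 and 2 lay near the threshold, at -1.15 and -1.05. RAP2B, a small GTPase of the RAS superfamily, had 102, 285 and 242 CPM in DMSO and 28.4, 73.4 and 67.5 CPM in SAL, and its groups did not overlap either. Of their tested paralogs, PLD2, PLCH2, DGKD and PRKD2 had adjusted p-values of 0.187, 0.263, 0.980 and 0.536 and log2 fold changes of 0.35, 0.61, 0.01 and 0.17, while PRKD3 fell, with a log2 fold change of -0.50 (SE 0.12, adjusted p = 0.00538). RAP2A and RAP2C did not pass the test (log2 fold change 0.08, SE 0.12, adjusted p = 0.704 for RAP2A).

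AIDA, an axin interactor that dampens JNK signalling, had pair changes of -1.95, -2.04 and -1.97 and 86.5, 66.1 and 85.7 CPM in DMSO and 22.1, 15.6 and 21.5 CPM in SAL. PHLDA1, a pleckstrin homology-like protein, had 34.2, 78.1 and 82.8 CPM in DMSO and 8.998, 23.2 and 21.1 CPM in SAL, whereas its family member PHLDA2 rose, with a log2 fold change of 1.00 (SE 0.23, adjusted p = 0.00764), and PHLDA3 did not pass the test (log2 fold change -0.30, SE 0.16, adjusted p = 0.206). PDE1A, a phosphodiesterase of cyclic nucleotides that calmodulin switches on, had 15.4, 6.73 and 12.3 CPM in DMSO and 4.07, 2.05 and 2.32 CPM in SAL. DEPTOR, which inhibits the kinase MTOR, had 12.5, 35.5 and 28.0 CPM in DMSO and 5.05, 16.3 and 10.3 CPM in SAL, and its groups overlapped as replicate 1 was low in both. MTOR itself rose, with a log2 fold change of 1.06 (SE 0.09, adjusted p = 1.07e-06), from 48.5, 174 and 144 CPM to 104, 301 and 285 CPM, while the complex partners RPTOR, RICTOR and MLST8 did not pass the test. The phosphatase PTPRB and the phosphatase inhibitor PPP1R14C were at 24.8% and 30.8% of their DMSO means. Of the CaMKII kinases that CAMK2N1 inhibits, CAMK2D fell, with a log2 fold change of -1.21 (SE 0.13, adjusted p = 5.38e-06), and CAMK2B and CAMK2G did not pass the test. The close relative CAMK2N2 rose from 1.22 to 1.30 CPM in DMSO to 1.73 to 5.52 CPM in SAL (log2 fold change 1.55, SE 0.38, adjusted p = 0.00787). DAPK2 fell, with a log2 fold change of -0.74 (SE 0.25, adjusted p = 0.0485), and DAPK3 did not pass the test (log2 fold change 0.42, SE 0.17, adjusted p = 0.0990).

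Among cell surface receptors, 7 G protein-coupled receptors had a median change of -2.03 (-2.62 to -1.35), 5 of them without overlap. GPR126 (now ADGRG6), an adhesion receptor for collagen and laminin, had 133, 86.5 and 168 CPM in DMSO and 42.8, 18.0 and 38.6 CPM in SAL. S1PR3, a receptor of sphingosine-1-phosphate, had 42.3, 149 and 118 CPM in DMSO and 15.7, 36.9 and 33.9 CPM in SAL. ACKR3, the atypical chemokine receptor for CXCL12 and a known androgen-repressed gene, had 81.4, 202 and 60.7 CPM in DMSO and 17.6, 62.6 and 14.3 CPM in SAL, with pair changes of -2.17, -1.68 and -2.05. The GPR126 and S1PR3 groups were apart, and those of ACKR3 overlapped by SAL replicate 2 alone, which lay just above DMSO replicate 3. CXCR4, the other receptor of CXCL12, went the other way, from 0 counts in every DMSO library to 31, 18 and 20 counts in SAL, at least 6.64-fold higher against a floor of 3 counts per library. CXCL12 did not pass the test (log2 fold change -0.42, SE 0.32, adjusted p = 0.410).

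The remaining receptors were low. GLP1R, the receptor of glucagon-like peptide-1, had 1.59, 3.93 and 3.32 CPM in DMSO and 0.123, 0.205 and 0.122 CPM in SAL. BAI2 (now ADGRB2), an adhesion receptor of the brain, had 1.10, 6.45 and 4.04 CPM in DMSO and 0.247, 1.13 and 0.610 CPM in SAL, with overlapping groups. OPRK1, the kappa opioid receptor and a known androgen-repressed gene, had 2.20, 4.77 and 2.16 CPM in DMSO and 0.247, 1.13 and 0.732 CPM in SAL. For GLP1R and OPRK1 every SAL library was below every DMSO library. PTGER3, a receptor of prostaglandin E2, had 1.71, 7.43 and 3.90 CPM in DMSO and 0.370, 0.716 and 1.46 CPM in SAL, while its relative PTGER4 rose (log2 fold change 1.16, SE 0.35, adjusted p = 0.0287). BAI2 was the only one of the 119 genes that the low-count filter removed before the fit. GLP1R belongs to the secretin family of receptors. Of the 2 other receptors of that family tested with edgeR, 0 passed the test, with 0 at an unadjusted p under 0.05 and 0 with DESeq2.

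Secreted proteins made up 14 of the 119, with a median change of -1.82 (-2.28 to -1.16), 9 without overlap. GCG encodes proglucagon, the precursor of glucagon and of the ligand of GLP1R, and it had 53.7, 18.4 and 40.3 CPM in DMSO and 17.3, 4.81 and 10.6 CPM in SAL, with pair changes of -1.61, -1.83 and -1.87. STC1, a glycoprotein hormone of calcium and phosphate balance, had 4.64, 6.45 and 13.1 CPM in DMSO and 0.493, 2.05 and 2.44 CPM in SAL, and its relative STC2 fell as well, from 58.6, 174 and 169.5 CPM to 28.2, 118 and 75.8 CPM (log2 fold change -0.81, SE 0.12, adjusted p = 0.000273). INHBA, the activin A subunit, had 2.57, 4.07 and 2.60 CPM in DMSO and 0.370, 0.409 and 0.610 CPM in SAL, and INHBB fell too (log2 fold change -0.75, SE 0.20, adjusted p = 0.0141). BMP7, a bone morphogenetic protein, had 8.18, 50.9 and 24.8 CPM in DMSO and 2.22, 17.6 and 5.49 CPM in SAL, overlapping between the groups. In the other BMP and TGF-beta genes, 4 of 32 tested with edgeR fell and 7 rose (0 and 6 with DESeq2, and 4 and 7 with DESeq2 at an unadjusted p under 0.05), beside 9.37% lower and 11.5% higher over all genes, with BMPR1B, a BMP receptor, moving from 11.4, 13.9 and 18.6 CPM to 53.7, 51.8 and 85.4 CPM (log2 fold change 2.21, SE 0.12, adjusted p = 4.64e-09).

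LIF, a cytokine of the interleukin-6 family, had 2.81, 8.42 and 5.63 CPM in DMSO and 0.986, 3.58 and 2.07 CPM in SAL, and its groups overlapped. Its receptor LIFR rose from 96.3, 70.0 and 124 CPM to 554, 227 and 617 CPM, with a log2 fold change of 2.29 (SE 0.13, adjusted p = 1.04e-07), and the shared chain IL6ST rose, with a log2 fold change of 0.37 (SE 0.11, adjusted p = 0.0300). CSF1, the macrophage colony-stimulating factor, had 1.34, 4.07 and 1.73 CPM in DMSO and 0.247, 0.818 and 0.366 CPM in SAL, and CSF1R did not pass the test (log2 fold change -0.04, SE 0.48, adjusted p = 0.968). PRSS1, cationic trypsinogen, had 7.70, 41.9 and 6.93 CPM in DMSO and 1.23, 9.31 and 1.59 CPM in SAL, and near-identical trypsinogen copies make its counts uncertain. The groups of CSF1 were apart and those of PRSS1 overlapped. BCHE, butyrylcholinesterase, had 4.40, 5.19 and 5.48 CPM in DMSO and 0.863, 0.409 and 0.732 CPM in SAL. SERPINI1, the neural serpin neuroserpin, had 17.6, 15.6 and 19.6 CPM in DMSO and 4.44, 2.05 and 4.52 CPM in SAL. Both were below the DMSO range in all 3 SAL libraries. The paralogs FAM198B and FAM198A (now GASK1B and GASK1A) were both chosen. FAM198B had 63.6, 71.0 and 83.5 CPM in DMSO and 27.4, 17.4 and 22.1 CPM in SAL. FAM198A had 1.71, 3.23 and 3.32 CPM in DMSO and 0.123, 0.921 and 0.610 CPM in SAL. Neither overlapped, and they were at 30.6% and 20.0% of their DMSO means. LGI2, ODAM and C9orf47 were at 26.8%, 30.2% and 23.3%.

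In the matrix and cell surface group of 8, with a median change of -1.72 (-2.76 to -1.23), MMP16 was followed by COLEC12, a scavenger receptor with a collagen-like domain, with 56.9, 213 and 184 CPM in DMSO and 17.8, 41.6 and 40.1 CPM in SAL. The family members MMP15 and MMP24, also membrane-anchored, did not pass the test (log2 fold change -0.12, SE 0.10, adjusted p = 0.444 for MMP15). SDC4, a heparan sulphate proteoglycan of focal adhesions, had 105, 224 and 118 CPM in DMSO and 50.3, 70.2 and 38.1 CPM in SAL. SDC1 fell as well (log2 fold change -0.58, SE 0.14, adjusted p = 0.00940), and SDC2 and SDC3 did not pass the test. GPC3, a glypican, had 7.94, 16.5 and 12.4 CPM in DMSO and 3.45, 6.24 and 5.00 CPM in SAL, and of its family GPC6 fell (log2 fold change -0.52, SE 0.09, adjusted p = 0.000860) while GPC1, GPC2 and GPC4 did not pass the test. HS6ST2, which adds sulphate to heparan chains, had 2.69, 6.45 and 5.48 CPM in DMSO and 0.493, 2.97 and 1.34 CPM in SAL, and HS6ST1 rose (log2 fold change 0.46, SE 0.14, adjusted p = 0.0260). HS3ST3B1, which sulphates the same chains at another position, had 5.25, 14.2 and 20.3 CPM in DMSO and 2.34, 6.65 and 9.52 CPM in SAL. Both sulphotransferases overlapped between the groups. FRAS1, a basement membrane protein, had 24.8, 128 and 113 CPM in DMSO and 6.78, 48.7 and 32.9 CPM in SAL. Its groups overlapped, as did those of tenascin C (TNC), a matrix glycoprotein with 2.57, 23.6 and 9.67 CPM in DMSO and 0.863, 4.40 and 2.68 CPM in SAL. VCAN, the proteoglycan versican, had 4.03, 2.24 and 7.07 CPM in DMSO and 1.36, 0.716 and 1.46 CPM in SAL. MATN2, a matrilin, had 2.32, 1.68 and 3.17 CPM in DMSO and 0.123, 0.511 and 0.244 CPM in SAL. VCAN and MATN2 were without overlap, each at a low level. Among 37 other matrix genes tested with edgeR, 4 (10.8%) fell and 8 (21.6%) rose, beside 9.37% and 11.5% of all genes. With DESeq2 1 fell and 7 rose, beside 5.64% and 7.66% of all genes. FN1, fibronectin, fell from 605, 4468 and 3639 CPM to 325, 1707 and 1371 CPM (log2 fold change -1.13, SE 0.11, adjusted p = 1.87e-06), and SPOCK1, a testican, rose from 0.366, 3.93 and 2.74 CPM to 3.20, 25.3 and 20.3 CPM (log2 fold change 2.92, SE 0.23, adjusted p = 2.10e-07).

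The 8 genes of neural adhesion, guidance and vesicle release had a median change of -2.10 (-2.77 to -1.21), and none of them overlapped between the groups. LRRN1, a leucine-rich repeat neuronal protein, had 26.5, 82.5 and 74.3 CPM in DMSO and 10.8, 17.2 and 17.3 CPM in SAL. SYTL2, an effector of the vesicle GTPase RAB27, had 154, 64.5 and 143 CPM in DMSO and 44.9, 15.1 and 34.5 CPM in SAL. In LRRN1 replicate 1 was the lowest of each group, and in SYTL2 replicate 2 was. CNTN5, a contactin, had 3.54, 2.52 and 2.45 CPM in DMSO and 0.123, 0.102 and 0.244 CPM in SAL. UNC13C, a priming factor of synaptic vesicles, had 4.40, 1.68 and 4.33 CPM in DMSO and 0.616, 0 and 0 CPM in SAL. In SAL both were at under 1 CPM in every library. SYT1, the calcium sensor of neurotransmitter release, had 6.47, 9.26 and 10.5 CPM in DMSO and 2.96, 1.53 and 2.44 CPM in SAL. EPHA5, an ephrin receptor, had 17.7, 7.43 and 13.6 CPM in DMSO and 7.40, 2.15 and 5.74 CPM in SAL. As in the rest of the group, the SAL range of both lay below the DMSO range. Of the relatives of SYTL2, SYTL1 and SYTL4 did not pass the test, nor did RAB27B, while RAB27A rose (log2 fold change 0.53, SE 0.16, adjusted p = 0.0287). Over all genes tested, edgeR called 9.37% lower and 11.5% higher, and DESeq2 5.64% and 7.66%, the shares to set beside the list counts that follow. Within vesicle release, 4 of the 34 other genes tested (11.8%) fell and 7 (20.6%) rose. STXBP5L, a tomosyn that holds back vesicle fusion, fell from 598, 386 and 729.9 CPM to 350.2, 149 and 349.9 CPM (log2 fold change -0.97, SE 0.10, adjusted p = 7.47e-06), and RAB3B, a vesicle GTPase, rose from 49.0, 204 and 195 CPM to 151, 570.1 and 609 CPM (log2 fold change 1.68, SE 0.09, adjusted p = 5.46e-09). In neural cell adhesion 7 of 34 fell and 2 rose with edgeR, and 2 fell and 2 rose with DESeq2, with the synaptic adhesion gene NLGN1 among the former (log2 fold change -0.89, SE 0.09, adjusted p = 4.68e-06), and in axon guidance 4 of 45 fell and 12 rose. LPPR1 was the sole chosen gene of the lipid phosphate phosphatases. Of the 5 others tested with edgeR, 0 fell and 3 rose (0 and 4 at an unadjusted p under 0.05, 0 and 3 with DESeq2), PPAP2A from 619.6, 697 and 524 CPM to 1268, 1489.8 and 1037 CPM (log2 fold change 1.14, SE 0.09, adjusted p = 4.41e-07).

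Channels and transporters numbered 10, with a median change of -1.75 (-2.52 to -1.08), 9 without overlap. KCNJ3, an inward rectifier potassium channel, had 5.25, 4.35 and 4.04 CPM in DMSO and 0.986, 0.205 and 0.854 CPM in SAL. GABRA5, a subunit of the GABA-A receptor, had 2.08, 6.73 and 3.90 CPM in DMSO and 0.740, 1.43 and 1.22 CPM in SAL. Both channel genes were without overlap, at 14.99% and 26.7% of the DMSO mean. NKAIN2, a partner of the sodium pump, had 2.57, 3.09 and 2.89 CPM in DMSO and 0.740, 0.307 and 0 CPM in SAL. SLC30A10, a manganese exporter, had 5.37, 3.37 and 5.05 CPM in DMSO and 1.23, 0.205 and 1.59 CPM in SAL. ABCA12, a lipid transporter of the skin barrier, had 19.3, 10.8 and 20.1 CPM in DMSO and 4.93, 3.58 and 4.64 CPM in SAL. These 3, too, had their SAL libraries below the DMSO range. SLC4A10, a sodium bicarbonate transporter, had 11.5, 8.84 and 17.5 CPM in DMSO and 3.08, 2.15 and 5.49 CPM in SAL. The nucleoside transporter SLC29A1, the pyruvate and lactate transporter SLC16A7 and the chloride channel BEST1 were at 37.5%, 44.2% and 44.2% of DMSO. Next to SLC16A7, its relative SLC16A1 fell (log2 fold change -0.46, SE 0.09, adjusted p = 0.00211) and SLC16A3 rose (log2 fold change 0.62, SE 0.13, adjusted p = 0.00248). SLC29A2 and SLC29A3 did not pass the test. Among 26 other cation channels tested with edgeR, 2 fell and 5 rose, and among 30 other neurotransmitter receptors 2 fell and 4 rose, shares of 7.69% and 6.67% lower beside 9.37% of all genes. With DESeq2 the counts were 1 and 4 for the channels and 1 and 3 for the receptors. CHRNA2, a nicotinic receptor subunit, rose from 2.32, 4.21 and 4.62 CPM to 28.1, 66.4 and 80.7 CPM (log2 fold change 4.05, SE 0.16, adjusted p = 1.33e-10).

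The 10 transcription factors were all at low counts, from 2.64 to 11.7 CPM in the DMSO mean. Their median change was -1.54 (-2.28 to -1.15), and 8 of them did not overlap between the groups. PGR, the progesterone receptor, had 2.57, 4.07 and 1.30 CPM in DMSO and 0.493, 0 and 0.122 CPM in SAL. HOXA13, a homeobox factor of the distal body and urogenital tract, had 6.60, 14.3 and 12.99 CPM in DMSO and 1.73, 3.07 and 4.03 CPM in SAL. Among the other HOXA genes, HOXA3, HOXA5, HOXA6, HOXA9 and HOXA10 did not pass the test. PAX1, a paired-box factor of the skeleton and thymus, had 1.34, 13.04 and 9.67 CPM in DMSO and 0.123, 1.74 and 1.59 CPM in SAL, and its groups overlapped. FOXN4, a forkhead factor of retinal and spinal neurons, had 3.91, 6.03 and 5.34 CPM in DMSO and 0.986, 0.511 and 0.732 CPM in SAL. IKZF3, a lymphoid zinc finger factor, had 4.15, 16.5 and 14.4 CPM in DMSO and 1.602, 5.83 and 3.54 CPM in SAL, and its groups overlapped. The relative IKZF2 fell too (log2 fold change -0.74, SE 0.18, adjusted p = 0.00878) while IKZF4 and IKZF5 did not pass the test. CSRNP3, MECOM, DACH1, OSR2 and ZNF154 were at 27.3%, 30.5%, 29.9%, 40.7% and 39.4% of their DMSO means.

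The 12 metabolic enzymes had a median change of -1.34 (-1.68 to -1.04), counting HS6ST2 and HS3ST3B1. BCAT1, which transfers the amino group of branched-chain amino acids, had 121, 104 and 153 CPM in DMSO and 40.2, 43.4 and 61.5 CPM in SAL, and BCAT2 did not pass the test (log2 fold change 0.40, SE 0.15, adjusted p = 0.0724). DDC, the decarboxylase that makes dopamine and serotonin and a known androgen-repressed gene, had 29.0, 24.5 and 15.3 CPM in DMSO and 12.3, 6.24 and 6.22 CPM in SAL. BCAT1 and DDC were lower in every SAL library than in any DMSO library. LPL, lipoprotein lipase, had 23.1, 12.2 and 17.2 CPM in DMSO and 9.24, 4.603 and 7.20 CPM in SAL. UGT8, which makes galactosylceramide, had 22.4, 20.1 and 36.9 CPM in DMSO and 8.38, 8.59 and 12.7 CPM in SAL. SPTLC3, a serine palmitoyltransferase subunit, had 11.97, 13.7 and 21.5 CPM in DMSO and 4.07, 4.40 and 9.15 CPM in SAL. The same held for these 3 lipid enzymes. SPTLC1 and SPTLC2, the partners of SPTLC3, did not pass the test. The sialyltransferase ST6GALNAC5 had 5.13, 1.96 and 4.62 CPM in DMSO and 1.11, 0.307 and 1.59 CPM in SAL. The sialyltransferase ST8SIA5 had 2.57, 2.66 and 4.04 CPM in DMSO and 0.986, 0.716 and 1.46 CPM in SAL. DMGDH, the dimethylglycine dehydrogenase of mitochondria, had 2.93, 1.82 and 1.73 CPM in DMSO and 0.616, 0.409 and 0.366 CPM in SAL. These 3 did not overlap, while the mannosidase MAN1A1 and TRHDE, which degrades thyrotropin-releasing hormone, did, at 31.4% and 39.3% of DMSO.

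In the cytoskeleton and junction group of 10, the median change was -1.33 (-1.91 to -1.11), and 8 genes were without overlap. CTNNA3, an alpha-catenin, had 3.05, 2.52 and 3.03 CPM in DMSO and 0.370, 0.307 and 0.610 CPM in SAL. FRMPD2, a scaffold of basolateral junctions, had 18.7, 20.5 and 30.0 CPM in DMSO and 6.29, 8.08 and 8.30 CPM in SAL. Both were without overlap. The paralogs NAV3 and NAV2, neuron navigators that bind microtubules, were both chosen, while NAV1 did not pass the test (log2 fold change 0.08, SE 0.10, adjusted p = 0.619). NAV3 had 10.7, 13.9 and 12.3 CPM in DMSO and 3.82, 4.19 and 5.25 CPM in SAL. NAV2 had 3.66, 6.31 and 6.93 CPM in DMSO and 1.36, 2.66 and 3.05 CPM in SAL. EPS8, an actin-capping protein, had 18.6, 10.5 and 19.3 CPM in DMSO and 7.52, 3.68 and 7.44 CPM in SAL, and its relative EPS8L2 rose (log2 fold change 0.74, SE 0.10, adjusted p = 6.75e-05). PALMD (palmdelphin), a relative of the membrane protein paralemmin, had 16.0, 8.56 and 10.5 CPM in DMSO and 5.92, 2.05 and 5.00 CPM in SAL. DRP2, a dystrophin-related protein, had 2.69, 1.82 and 2.45 CPM in DMSO and 0.863, 0 and 0.732 CPM in SAL. None of these 3 overlapped between the groups. PMP22, a myelin membrane protein, ANK2, an ankyrin, and TNS1, a tensin of focal adhesions, were at 29.3%, 34.6% and 43.1% of DMSO. The groups of ANK2 and TNS1 overlapped.

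Cell division genes had the smallest changes of the groups, with a median of -1.12 (-1.85 to -1.02), and 5 of the 9 overlapped between the groups. BARD1, the partner of BRCA1 in a ubiquitin ligase of DNA repair, had 552, 313 and 424 CPM in DMSO and 236, 86.1 and 116 CPM in SAL, and BRCA1 fell as well, from 116, 57.4 and 146 CPM to 69.4, 23.2 and 75.5 CPM (log2 fold change -0.88, SE 0.11, adjusted p = 2.49e-05). NDC80, of the outer kinetochore, had 205, 47.8 and 129 CPM in DMSO and 95.2, 22.8 and 58.1 CPM in SAL. Of its complex, NUF2 and SPC24 fell (log2 fold change -0.82, SE 0.10, adjusted p = 2.94e-05 for NUF2) and SPC25 did not pass the test. BIRC5 (survivin), of the chromosomal passenger complex, had 171, 59.7 and 56.1 CPM in DMSO and 77.3, 29.2 and 25.7 CPM in SAL, and its partners AURKB, CDCA8 and INCENP fell, AURKB most (log2 fold change -0.94, SE 0.14, adjusted p = 0.000139). UBE2C, a ubiquitin-conjugating enzyme of the anaphase-promoting complex, had 86.2, 42.9 and 43.7 CPM in DMSO and 41.8, 18.3 and 18.3 CPM in SAL, and the activator CDC20 fell (log2 fold change -0.85, SE 0.13, adjusted p = 0.000157) while FZR1 did not pass the test. CENPA, the centromeric histone, had 58.4, 26.4 and 27.8 CPM in DMSO and 27.5, 10.4 and 12.7 CPM in SAL. Its chaperone HJURP fell (log2 fold change -0.41, SE 0.10, adjusted p = 0.0105), but CENPN, which reads the CENPA nucleosome, rose from 56.8, 37.9 and 46.2 CPM to 170.1, 268 and 237 CPM (log2 fold change 2.35, SE 0.30, adjusted p = 0.0132).

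CDCA5 (sororin), which holds sister chromatids together, had 21.6, 47.4 and 52.5 CPM in DMSO and 10.4, 20.7 and 21.1 CPM in SAL. NEK2, a centrosome kinase, had 73.5, 31.1 and 54.1 CPM in DMSO and 36.5, 10.7 and 24.6 CPM in SAL. MND1, a meiotic recombination factor, had 29.9, 8.27 and 13.3 CPM in DMSO and 14.5, 3.27 and 6.35 CPM in SAL. Of the 3, CDCA5 alone was without overlap, and in NEK2 and MND1 replicate 1 was the highest library of both groups. Of the cohesin genes that sororin works with, SMC3 and RAD21 fell by 0.33 and 0.35 on the log2 scale (adjusted p = 0.0147 and 0.00955), SMC1A, WAPAL and PDS5A did not pass the test, and PDS5B rose (log2 fold change 0.36, SE 0.09, adjusted p = 0.00911). NAP1L1 has 4 tested relatives: NAP1L5 rose from 4.40, 0.982 and 7.94 CPM to 19.7, 5.11 and 20.7 CPM (log2 fold change 1.93, SE 0.22, adjusted p = 1.47e-05), and NAP1L2, NAP1L3 and NAP1L4 did not pass the test. Among the 39 other proliferation genes tested with edgeR, 38 fell and 0 rose, beside 9.37% lower and 11.5% higher over all genes. At an unadjusted p under 0.05, 0 were higher as well. With DESeq2, 36 were lower and 0 higher, beside 5.64% and 7.66% over all genes. Their median was -0.77 on the log2 scale. TOP2A, CCNA2 and MCM10, with the smallest adjusted p, fell by 1.02, 1.03 and 0.94 on that scale.

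At the ST7 locus, 4 overlapping genes were chosen: ST7, which encodes a membrane protein, and the noncoding ST7-OT4, ST7-AS1 and ST7-AS2. ST7 lies on chromosome 7 from 116593292 to 116870230 on the plus strand, had 177, 225 and 183 CPM in DMSO and 65.5, 57.0 and 47.5 CPM in SAL and pair changes of -1.43, -1.97 and -1.93. ST7-OT4 on the same strand had 50.8, 33.1 and 52.4 CPM in DMSO and 11.1, 5.63 and 10.6 CPM in SAL, and the antisense RNA ST7-AS2 had 31.9, 12.3 and 28.9 CPM in DMSO and 6.78, 1.94 and 5.49 CPM in SAL. The other antisense RNA, ST7-AS1, had 4.89, 4.07 and 3.61 CPM in DMSO and 1.48, 0.921 and 0.366 CPM in SAL. In all 4 the SAL libraries were below the DMSO range. The reads were counted without regard to strand, so antisense reads and reads from introns of ST7 cannot be told apart from these RNAs, and the 4 genes are not 4 separate observations. The pseudogene TPM3P1 inside ST7 was lower too (log2 fold change -1.97, SE 0.38, adjusted p = 0.00145), while ST7L, the paralog on another chromosome, did not pass the test (log2 fold change -0.21, SE 0.11, adjusted p = 0.226).

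The genes of other or little-known role numbered 14, and all were without overlap. LUZP2, a leucine zipper protein, had 182, 107 and 144 CPM in DMSO and 91.0, 37.8 and 55.0 CPM in SAL. CCDC59, a coiled-coil protein, had 171, 107 and 98.1 CPM in DMSO and 84.1, 49.2 and 41.9 CPM in SAL. AF131217.1, a clone name of a form that the choice did not leave out, had 28.0, 18.9 and 30.7 CPM in DMSO and 9.74, 2.45 and 6.59 CPM in SAL. In all 3 the change was smallest in pair 1. SPATA18, a mitochondrial quality control protein, had 16.7, 17.8 and 25.7 CPM in DMSO and 5.67, 5.22 and 9.27 CPM in SAL. CD83, an immunoglobulin-like marker of dendritic cells, had 4.15, 6.87 and 5.34 CPM in DMSO and 1.36, 2.45 and 0.244 CPM in SAL. PLEKHS1, LRRC31, PRKAG2-AS1, CCDC85A, ZBBX and DPY19L2P1 were all below 10 CPM in every library, at 13.8%, 9.15%, 30.3%, 14.6%, 31.0% and 23.8% of DMSO.

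A fit of all 16835 genes that passed the count filter (edgeR with the replicate number as a block) called 9.37% of them lower and 11.5% higher in SAL. All 118 of the 119 genes that were tested were called lower, from which nothing is read because the choice used the same libraries. DESeq2 with the same block called 117 of them, against a background of 5.64%, and edgeR without the block called 3, against 0.0178%. For genes outside the choice, 15 lists were drawn around the roles above, and 80 of 406 list genes tested fell and 64 rose. Without replicate 3 the counts were 45 and 36. With all replicates, the proliferation list alone held 38 of the 80 that fell, from 39 tested, and 0 of the 64 that rose. The list of androgen-repressed genes known in prostate cells held OPRK1, DDC, ACKR3 and CAMK2N1 and 12 other tested genes, of which 4 fell and 1 rose. Those with the smallest adjusted p were GRIN3A (from 35.4, 69.4 and 79.1 CPM to 21.7, 24.4 and 40.6 CPM), a glutamate receptor subunit, TERT (from 7.70, 7.71 and 7.94 CPM to 2.96, 4.603 and 3.42 CPM), the catalytic subunit of telomerase, and MET (from 1.59, 2.66 and 1.73 CPM to 0.123, 0.102 and 0.854 CPM), the receptor of hepatocyte growth factor, while CLU, clusterin, rose (log2 fold change 2.11, SE 0.17, adjusted p = 2.57e-07). The log2 fold changes of GRIN3A, TERT and MET were -0.97, -0.99 and -2.41 (SE 0.13, 0.23 and 0.62), with adjusted p of 9.53e-05, 0.00692 and 0.0124. MET was under 1 CPM in every SAL library, and its pair changes were uneven, at -1.74, -2.39 and -0.72.

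In the lists of cadherins and of neural cell adhesion, 21.1% of 19 and 20.6% of 34 tested genes fell, beside the 9.37% of all genes. With DESeq2 only 2 of the 19 and 2 of the 34 fell, beside 5.64% of all genes, so the shares of edgeR depended on the tool. In axon guidance, growth factor receptors, BMP and TGF-beta genes, matrix genes and vesicle release, between 20.6% and 26.7% rose, beside the 11.5% of all genes. With DESeq2 the counts higher in these lists were 8 of 45, 7 of 29, 6 of 32, 7 of 37 and 7 of 34, beside 7.66% of all genes. The WNT pathway, with 3 of 34 lower and 4 higher, and the ciliary axoneme, with 2 of 31 lower and 2 higher, were close to the background (2 and 4, and 0 and 1, with DESeq2). In the WNT pathway, RNF43, a negative regulator of its receptors, fell from 17.7, 44.5 and 38.8 CPM to 8.75, 11.9 and 12.9 CPM (log2 fold change -1.44, SE 0.16, adjusted p = 1.12e-05), and the receptor FZD5 rose (log2 fold change 1.37, SE 0.11, adjusted p = 3.06e-07). Of growth factor genes, KITLG, the ligand of KIT, fell (log2 fold change -1.31, SE 0.28, adjusted p = 0.00341), and the receptor IGF1R rose from 8.31, 72.1 and 63.9 CPM to 46.5, 262 and 258 CPM (log2 fold change 2.17, SE 0.11, adjusted p = 3.25e-09). DNAH5, an axonemal dynein heavy chain, rose from 21.5, 23.3 and 37.8 CPM to 51.6, 51.0 and 89.1 CPM (log2 fold change 1.31, SE 0.11, adjusted p = 3.86e-07), in the list that held TTC29. Among 64 tested paralogs of the chosen genes, 9 fell and 8 rose, and among 35 tested binding partners 12 fell and 7 rose. Over all genes the shares were 9.37% lower and 11.5% higher. Both sets were put together after the 119 were known, and both leave out chosen genes. Paralogs that were chosen together, such as NAV2 and NAV3, are therefore not counted in them. The partners that fell were those of cell division genes, except CAMK2D and DPP4. The partners that rose were those of other genes, except CENPN and PDS5B. The plot of list calls shows nearly all genes of the proliferation list on the lower side and 3 of the 5 lipid phosphate phosphatases on the higher side.

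**Figure D4:**
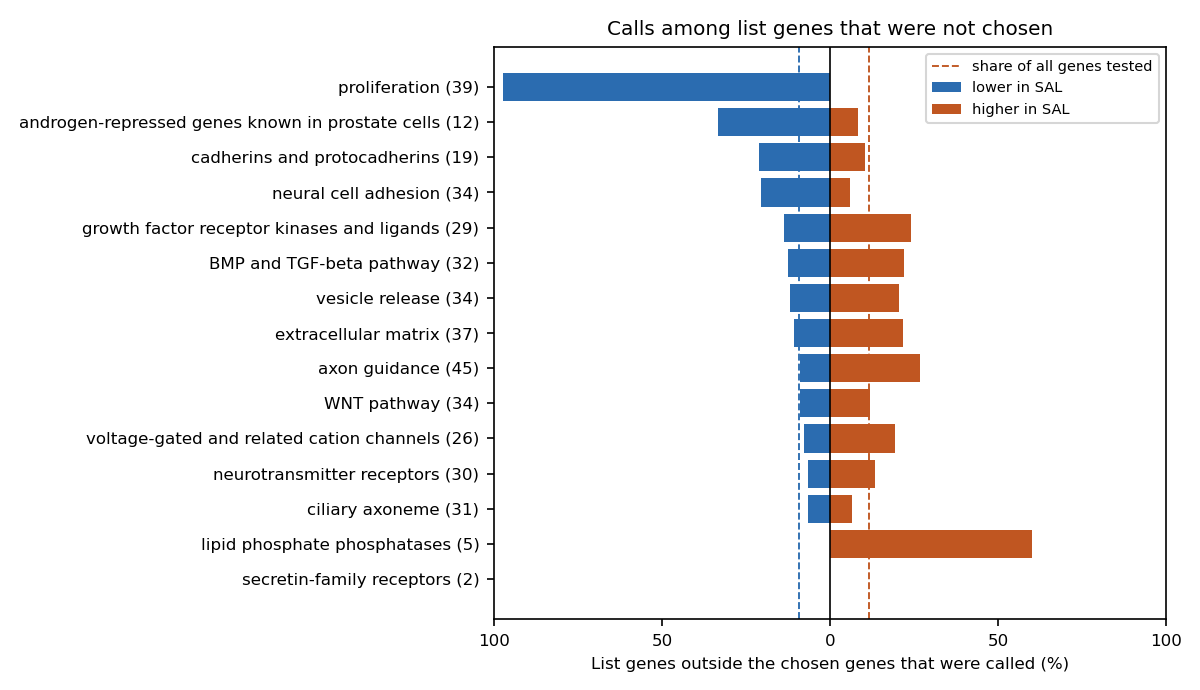
Share of tested list genes outside the 119 (percent; number tested in brackets) that were called lower in SAL (blue, to the left) or higher (orange, to the right) at an edgeR adjusted p under 0.05. Dashed lines mark 9.37% and 11.5% of all genes tested; in the proliferation list 97.4% of 39 genes were lower and 0 higher.

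The 117 genes with a position in the annotation were spread over most chromosomes. The largest share of tested genes was on chromosome 4, where 11 genes were chosen and made up 2.12% of the 519 tested, followed by chromosomes 7 and 12 at 1.53% each. On chromosomes 16 and 21, 0 of 598 and 0 of 153 tested genes were chosen. With gaps of up to 2 Mb, 39 of the genes fell into 15 runs of 2 or more. The longest run was on the long arm of chromosome 3, from 164904508 to 171528740, with SLITRK3, BCHE, ZBBX, SERPINI1, MECOM, LRRC31 and PLD1. These 7 genes lay among 16 other tested genes, of which 1 fell (GOLIM4, log2 fold change -0.77, SE 0.10, adjusted p = 7.64e-05), 2 rose (PDCD10 and SEC62) and 13 did not pass the test. On chromosome 12, from 76419227 to 79845788, PHLDA1, NAP1L1, NAV3 and SYT1 lay among 5 other tested genes, and 4 of these, named after their values were seen, fell: BBS10, OSBPL8, CSRP2 and E2F7, with log2 fold changes from -1.05 to -0.40. The plot of both runs shows most other genes of chromosome 3 around 0 and those of chromosome 12 below it. The difference between the runs was not tested. TTC29 and TMEM184C, 2 of the genes described above, lay in 1 run on chromosome 4 with a single other tested gene, PRMT10, which overlaps TMEM184C on the opposite strand and fell (log2 fold change -0.71, SE 0.13, adjusted p = 0.000958).

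**Figure D5:**
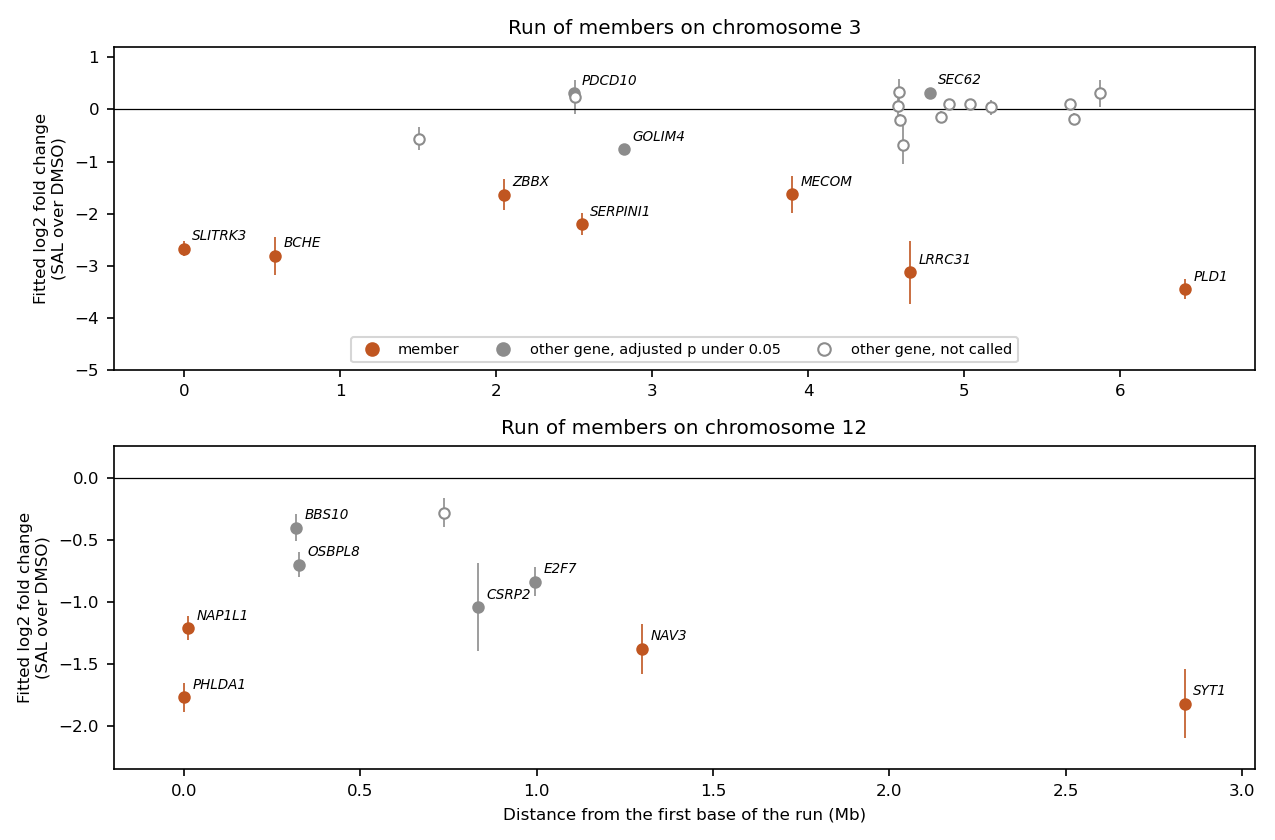
Fitted log2 fold change (SAL over DMSO) of every tested gene in 2 runs of chosen genes. The x axis is the distance from the first base of the run in Mb. Error bars give the approximate SE taken from the F statistic of the test. Orange points are chosen genes, filled grey points other genes with an adjusted p under 0.05 and open points genes that did not pass the test; on chromosome 3, 13 of 16 other genes are open, and on chromosome 12, 1 of 5.

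Within 100 kb of the 119 genes, 171 other genes were tested. Of these, 35 (20.5%) fell and 16 (9.36%) rose, beside 9.37% and 11.5% of all genes, and without replicate 3 the counts were 18 and 4. Of the 19 genes that overlap a chosen gene, 6 fell. Reads from introns or the opposite strand of the chosen gene can be counted to such a gene. Reads on exons of both genes were tallied as ambiguous and left out. Of the 152 that do not overlap, 29 (19.1%) fell and 15 rose. GRB10, an adaptor of the insulin receptor that lies 24658 bases from DDC, fell from 173, 722 and 521 CPM to 90.2, 259.8 and 199.5 CPM (log2 fold change -1.17, SE 0.10, adjusted p = 7.96e-07), and FIGNL1, on the other side of DDC, fell as well (log2 fold change -0.96, SE 0.10, adjusted p = 8.42e-06). TK1, thymidine kinase, and TMC6 lie within 100 kb of BIRC5, and TK1 fell (log2 fold change -0.96, SE 0.11, adjusted p = 1.27e-05) while TMC6 rose (log2 fold change 0.85, SE 0.11, adjusted p = 3.40e-05). DCLRE1A near PLEKHS1, DPY19L1 near DPY19L2P1 and DSCC1 near DEPTOR fell, with log2 fold changes of -0.72, -0.81 and -0.67, and INTS10 near LPL rose (log2 fold change 0.56, SE 0.09, adjusted p = 0.000320). CAMK2D, 33833 bases from ANK2, fell with the value given above. At GCG and SLC4A10 on chromosome 2, DPP4, the peptidase that inactivates glucagon-like peptide-1, lies between them and fell by 0.29 on the log2 scale (adjusted p = 0.0434), from 348, 239 and 439 CPM to 319, 163 and 312 CPM, where GCG was at 29.1% of DMSO.

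The closest neighbours are genes that start within 1 kb of a chosen gene on the opposite strand. Of 8 such genes tested, 3 fell (METTL4, METTL25 and BROX), 1 rose (PDCD10) and 4 did not pass the test (ZFPL1, STRAP, JMY and PRKAG2). Over all genes tested, 9.37% fell and 11.5% rose. METTL25, BROX and PRKAG2 overlap the chosen gene, so reads from it can be counted to them. METTL4 starts 48 bases from NDC80 and had a log2 fold change of -0.48 (SE 0.12, adjusted p = 0.0106), and PDCD10 starts 304 bases from SERPINI1 and rose from 100.3, 49.4 and 67.7 CPM to 116, 55.5 and 82.4 CPM (log2 fold change 0.32, SE 0.10, adjusted p = 0.0273) where SERPINI1 was at 20.8% of DMSO. AIDA had a neighbour on each side: BROX, which starts 657 bases from its start and overlaps it, fell (log2 fold change -0.57, SE 0.10, adjusted p = 0.00101), and MIA3, which ends 6 bases from its end, rose from 287, 283 and 385 CPM to 408, 493 and 676 CPM (log2 fold change 0.80, SE 0.10, adjusted p = 3.68e-05). Chosen genes were left out of these neighbours. A named gene at 2 CPM or more with every pair at -1 or less could therefore not be among the 8. Nothing is read from the size of their changes.

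The chosen genes were long. The 110 tested protein-coding ones spanned a median of 103.4 kb in the genome, against 34.3 kb for the 12211 protein-coding genes tested, 56 of them (50.9%) spanned more than 100 kb against 20.5%, and 13 (11.8%) more than 500 kb against 1.42%. The longest were CTNNA3, CNTN5 and NKAIN2, at 1851, 1338 and 1022 kb.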

How the data were processed

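RNA was measured by sequencing of 6 C4-2 libraries, 3 given DMSO and 3 given 1 nM R1881 for 72 h, which the study performed as independent experiments. The files hold whole read counts per gene symbol, not normalized: the authors prepared stranded total RNA libraries, trimmed the first bases, aligned only the forward reads to the hg19 genome, using TopHat2 2.1.0, and counted exons of GENCODE genes with HTSeq 0.11.2 and no regard to strand, as deposited. Counting on symbols without strand can mix overlapping and antisense genes.

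Of 55765 symbols, 523 rRNA symbols were removed (11.9% to 27.8% of counts in a library), and the remaining counts were scaled to CPM. Genes were chosen as the report describes, with a pseudocount of 0.5 CPM, and the genes and lists were chosen with earlier results of these data known. In full are named the 10 genes with the most negative median change among those with over 3 counts in some SAL library, the 10 with the highest DMSO level, those in a list, those sharing a family, the 3 on either side of each threshold, the 10 neighbours with the smallest adjusted p, and KLK3, and list genes outside the choice come from the 3 with the smallest adjusted p in each direction of a list. Roles, relatives and partners, and the genes named in the runs and head-to-head pairs, were picked after values were seen.

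Genes outside the choice were tested with edgeR 4.0.16 in R 4.3.3 (TMM, low-count filter, robust quasi-likelihood test with the replicate number as a block, Benjamini-Hochberg adjustment over 16835 genes, threshold 0.05). The study used a paired design, and same-numbered libraries deviated from their group means with correlations of 0.886, 0.856 and 0.739. Plain CPM left the median gene at -0.09 and TMM at -0.00 on the log2 scale. On simulated counts for the 16275 genes tested there, 81.6% of genes changed by a log2 of 1 and 100% of those changed by 2 were called, and 9.74% of calls were unchanged genes. Alternatives were DESeq2 1.42.0, its size factors, no block, no filter, other thresholds, and leaving out each replicate number. Genes were placed with GENCODE annotation lifted to GRCh37, which matched 117 of the 119 genes directly or by an older symbol. The 12171 comparison promoters are those of tested protein-coding genes with a start in that annotation. Intervals for counting error are not given, and PCR duplicates were not separable.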

Additional observations from a re-analysis of the deposited data

How the results depend on the processing

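The number of chosen genes, 119, was 301 without the pairing (a change between group means alone, which kept all 119) and 36 at a change of -1.5 or less. It ranged from 158 to 253 when a replicate number was left out, fewer pairs then having to pass, and was 95 with TMM-scaled CPM, 86 and 155 with pseudocounts of 1 and 0.1 CPM, 127 and 89 with DMSO minimums of 1 and 5 CPM, and 117 (108 shared) with rRNA genes kept. Without the replicate block, edgeR called 3 of the 118 chosen genes tested, 0 list genes lower and 1 higher, and 0 neighbours lower and 0 higher, where the block gave 118, 80, 64, 35 and 16. At an unadjusted p under 0.05 the fit without the block had 10 list genes lower and 22 higher, and 5 neighbours lower and 1 higher. DESeq2 with the block called 56 list genes lower and 54 higher, and 25 neighbours lower and 12 higher.

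When a replicate number was left out, the calls ranged from 106 to 118 for the chosen genes, 45 to 101 and 36 to 66 for list genes lower and higher, and 18 to 37 and 4 to 23 for neighbours lower and higher, with the lowest value of each without replicate 3. The cause was not tested. Within 50 kb, 26 of 113 neighbours were lower and 8 higher, and within 500 kb 87 of 587 were lower and 61 higher. Of 113 single genes named with a test, none changed direction where it had a value (GLRA2 had none without replicate 1, nor KCNG1 without replicate 2), and 112 lost their call without the block, 24 with DESeq2, 4 with no filter, 1 with other size factors, and 4, 18 and 45 without replicates 1, 2 and 3. At these depths a gene at 2 CPM has few counts in a library, so the fold changes of the lowest genes are the least exact.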
